A study of Chlamydomonas reinhardtii with 2 samples.

Results

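Introns with borders other than GT-AG were examined in the green alga Chlamydomonas reinhardtii, in the library of cells kept with nitrogen. They were taken from the alignment records of single cDNA reads, as stretches of 20 or more genome bases that a read skips between consecutive aligned blocks. These stretches are called gaps. Members were chosen by the sign that the aligner wrote at each gap, which gives its border class: GC-AG, AT-AC, or any other pair of border dinucleotides (the other class). Gaps with the same chromosome sequence, start and end were merged. This gave 564 distinct gaps of 9701 in all, 235 of them GC-AG, 16 AT-AC and 313 of the other class. The remaining 9137 had GT-AG borders. Border sign and length, both measured in these reads, selected the gaps, so counts per class are given as a description, without a test. Of the 564, 177 lay within 10 bases of a GT-AG gap at both borders and 119 were crossed unspliced by most reads, so the word intron is used only for GT-AG gaps and for GC-AG gaps with at least 10 reads.

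The cells were of strain dw15.1, with the alleles cw15 (loss of the cell wall) and nit2 (regulator of nitrate assimilation) and mating type mt+, which both libraries of the study share. They grew in TAP, an acetate medium, in continuous light to 5000000 cells per mL. The culture was then split, and the N-replete cells spent 48 hours in 50 mL of the medium with 10 mM ammonium. The N-deprived library, from the other part of that culture, was not analysed here, and each condition had 1 biological replicate. Total RNA was copied into cDNA from a primer with an oligo(dT) stretch, amplified by PCR and read by 454 pyrosequencing, in which a read can start on either strand of the cDNA. There is no replicate error. Bracketed ranges are exact Clopper-Pearson 95% intervals for shares and order-statistic intervals for medians, and they cover counting error alone, since PCR copies are not independent molecules. Where a count is 0, the share that it allows is given as 3 counts of the total, slightly below the upper bound of the exact interval.

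An intron is removed by the spliceosome, which recognises the donor site at the 5′ end of the intron, nearly always GT in the genomic DNA, and the acceptor site at its 3′ end, nearly always AG. GC-AG introns are the commonest exception in plants, animals and fungi. They are removed by the same major spliceosome, although the second base of GC does not pair with the U1 RNA that reads the donor. AT-AC borders are best known from introns of the minor, U12-type spliceosome. Positions are those of the alignment files, in a build not given in the sources used here. Sequences carry the numbers 1 to 17 and the name NA. No genome or annotation of that build was used, so genes were not assigned and the bases around the borders, beyond the border dinucleotides in the records, are not shown.

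The library held 239585 aligned reads. After 16189 reads with equally good places were left out, 223396 tie-free reads remained, of which 45124 had at least 1 gap. Gaps were counted once per read as splice events, 61358 in all. Borders other than GT-AG made up 1212 of these events, 1.98% (interval 1.87 to 2.09), in 1183 reads. By class this was 1.27% (interval 1.18 to 1.36) for GC-AG with 778 events, 0.0326% (interval 0.0199 to 0.0503) for AT-AC with 20 and 0.675% (interval 0.611 to 0.743) for the other class with 414. Members made up a larger share of the distinct gaps, 5.81% (interval 5.36 to 6.30), because most of them were seen in few reads.

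The classes differed in how often a gap was seen again. Of the 235 GC-AG gaps, 154 had 1 read and 81 had at least 2 (34.5%, interval 28.4 to 40.9). Of the 16 AT-AC gaps, 3 had at least 2 reads (18.8%, interval 4.05 to 45.6). Of the 313 gaps of the other class, 37 did (11.8%, interval 8.46 to 15.9). Among GT-AG gaps the share was 49.5% (interval 48.5 to 50.6). In this library GC-AG gaps thus recurred more often than gaps of the other class and less often than GT-AG gaps. The number of reads also sorts the gaps, so this is a description without a test. Transcript abundance was not taken into account. With at least 10 reads there were 14 GC-AG gaps, 1 gap of the other class and no AT-AC gap.

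**Figure D1:**
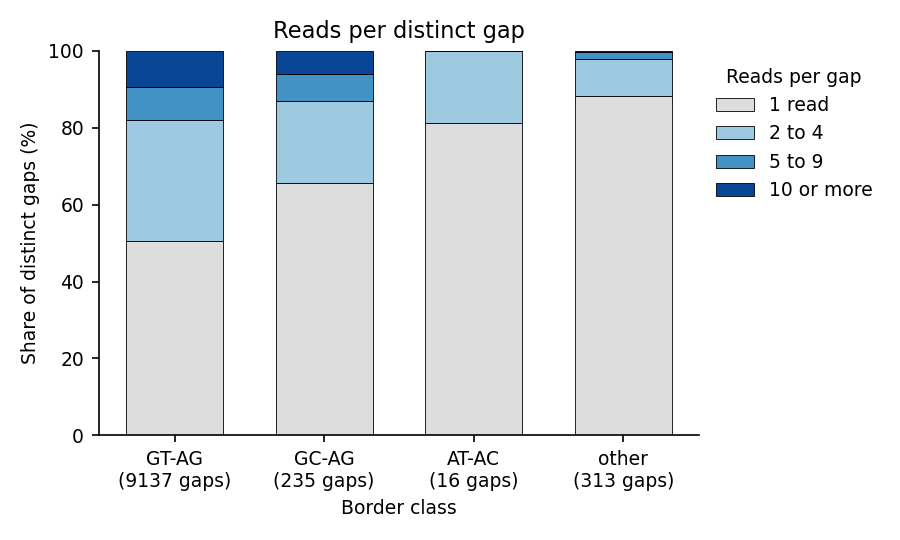
Stacked bars give the share of distinct gaps (%) of each border class by the number of reads per gap, with the number of gaps under each bar. The part with 1 read grows from 50.5% for GT-AG and 65.5% for GC-AG to 88.2% for the other class.

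The most used GC-AG intron lay on sequence 12 between 382079 and 382383, on the minus strand, and was 305 bases long. It was spliced in 111 reads, 80 aligned to the plus strand and 31 to the minus strand, and no read crossed either border unspliced. The intron before it in the transcript had 94 reads and the one after it 128, both with GT-AG borders, so the GC-AG intron was read about as often as its neighbours. A GT-AG gap from 382079 to 382379 used the same acceptor and a GT donor 4 bases further downstream, in 2 reads. Neither of these 2 reads had 10 matching bases on both sides, whereas 84 of the 111 did.

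On sequence 9, the plus-strand intron from 403452 to 403662 (211 bases) had 35 reads, 17 plus and 18 minus, against 41 and 42 at the GT-AG introns on its sides. On sequence 7, the plus-strand intron from 2299830 to 2300169 (340 bases) had 34 reads, against 52 before and 37 after it, and 3 unspliced reads crossed its left border. On sequence 13, the plus-strand intron from 2490556 to 2490748 (193 bases) had 31 reads, and the GT-AG intron after it had 50. These 3 GC-AG introns were below their neighbours in read number, but each was read in both directions and in at least 29 separate alignments.

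GC-AG introns could lie next to each other. On sequence NA, the minus-strand introns from 1617406 to 1617489 (84 bases, 27 reads) and from 1617175 to 1617342 (168 bases, 18 reads) were joined by an exon of 63 bases. Their outer GT-AG neighbours had 29 and 19 reads. On sequence 1, the plus-strand introns from 2261310 to 2261438 (129 bases, 20 reads) and from 2261550 to 2261876 (327 bases, 17 reads) were joined by an exon of 111 bases. In both transcripts consecutive introns started with GC. Of the 78 loci (runs of overlapping alignments) with a GC-AG gap of at least 2 reads, 3 held 2 such gaps and none held more.

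The 10 GC-AG gaps with the most reads also included a short intron of 66 bases on sequence 1, from 6939256 to 6939321 on the minus strand, with 22 reads, 16 plus and 6 minus. An intron of 134 bases on sequence 2, from 5385367 to 5385500 on the minus strand, had 23 reads, and 4 unspliced reads crossed its left border. All 10 were read in both directions, although the 168-base intron had 17 plus reads and 1 minus read. None of their reads had a second place on the genome.

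**Figure D2:**
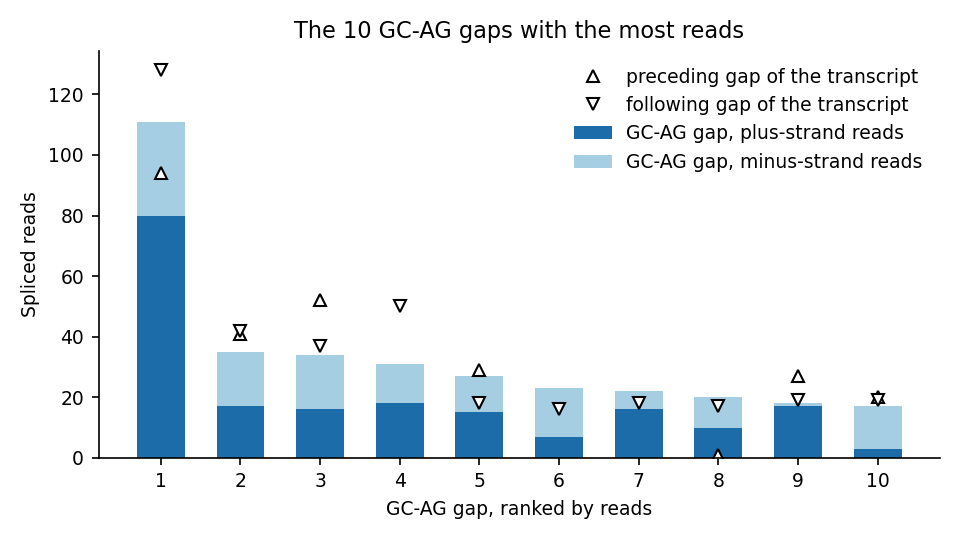
Bars give the spliced reads of the 10 GC-AG gaps with the most reads, divided by read direction, and triangles give the reads of the gap before and after it that shared most reads with it. The first gap has 111 reads and the others 17 to 35, close to most of their neighbours. Where no triangle is drawn, no read joined the gap to another on that side.

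Read numbers could be set against neighbours on both sides for 19 of the 81 recurrent GC-AG gaps, and the others have no such value. For the 19 GC-AG gaps with at least 2 reads and a GT-AG neighbour on both sides in the same reads, the read number divided by the mean of the neighbours had a median of 1 (interval 0.764 to 1.33). For 1097 GT-AG gaps chosen in the same way it was 1.09 (interval 1.03 to 1.11). The intervals overlap, which does not show equal use. Of the 624 events at recurrent GC-AG gaps, 62.7% (interval 58.7 to 66.5) were in reads that held another gap, so that the transcript was seen spliced there as well. This was 48.5% (interval 48.1 to 48.9) at GT-AG gaps with at least 2 reads. At gaps with 1 read it was 46.1% (interval 38.1 to 54.3) for GC-AG and 53.8% (interval 52.4 to 55.3) for GT-AG.

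Unspliced reads across GC-AG gaps were concentrated at few of them. Of the 81 with at least 2 reads, 70 had no unspliced crossing, and of 4525 such GT-AG gaps 4302 had none. Over all 81, 32.1% (interval 29.9 to 34.3) of 1837 boundary crossings were unspliced, where a spliced read counts at both borders. At GT-AG gaps with at least 2 reads this was 1.01% (interval 0.949 to 1.07) of 112197. Over all 235 GC-AG gaps it was 47.6% (interval 45.8 to 49.4), against 2.63% (interval 2.54 to 2.72) for all GT-AG gaps. Of the 235, 17 gaps crossed unspliced more often than spliced held 1385 of 1412 unspliced crossings. Among GT-AG gaps, 44 such gaps held 2794 of 3251. The pooled unspliced share was thus higher at GC-AG gaps, but 3 gaps that were crossed unspliced more often than spliced held 565 of the 589 unspliced crossings at the 81. The intervals for crossings treat each crossing as independent. They are too narrow, because crossings cluster by gap and a spliced read counts at both borders.

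The other 78 held 24 unspliced crossings, 1.91% of 1256 (interval 1.23 to 2.83). At GT-AG gaps with at least 2 reads, 10 mostly unspliced gaps held 734 of 1129 unspliced crossings. Without these 10, 395 of 111411 crossings were unspliced, 0.355% (interval 0.320 to 0.391), which is below the GC-AG value. Both remainders were chosen by their low unspliced share and are a description alone. The 3 mostly unspliced gaps included the longest recurrent GC-AG gap, of 702 bases on sequence 6 from 1809962 to 1810663, with 3 reads. All 3 of its reads were minus, none had 10 matching bases on both sides, and the gap spanned a whole GT-AG intron.

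In which direction the reads ran was compared at equal numbers of reads. Gaps with 2 reads were seen in both directions in 11 of 28 cases for GC-AG (39.3%, interval 21.5 to 59.4) and in 547 of 1617 for GT-AG (33.8%, interval 31.5 to 36.2). For the other class this was 0 of 22, which allows a share of up to 13.6%. Here the other class was below both, with an exact upper bound of 15.4%. With 3 to 4 reads it was 12 of 22 for GC-AG (54.5%, interval 32.2 to 75.6), 58.3% (interval 55.5 to 61.0) for GT-AG and 2 of 8 for the other class (interval 3.19 to 65.1%), and the intervals overlap. With 5 to 9 reads it was 13 of 17 for GC-AG (76.5%, interval 50.1 to 93.2), 83.2% (interval 80.4 to 85.8) for GT-AG and 1 of 6 for the other class (16.7%, interval 0.421 to 64.1). There the other class was below GT-AG, while its interval overlaps that of GC-AG. The intervals of GC-AG and GT-AG overlapped in each of these groups.

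GC-AG gaps were of up to 100 bases more often than GT-AG gaps, but the difference was not clear in the medians. The median was 193 bases (interval 170 to 217) for the 235 GC-AG gaps and 217 bases (interval 214 to 220) for GT-AG. For those with at least 2 reads it was 176 bases (interval 156 to 217) against 214 (interval 209 to 217). With at least 10 reads it was 202 bases (interval 84 to 327) for 14 GC-AG gaps and 200 (interval 193 to 208) for GT-AG. Gaps of up to 100 bases made up 17.4% (interval 12.8 to 22.9) of GC-AG gaps and 10.0% (interval 9.43 to 10.7) of GT-AG gaps. A minimum gap of 50 bases left 227 of the 235 GC-AG gaps and 9127 of the 9137 GT-AG gaps. Gaps of the other class had a wider spread, with a median of 244 bases (interval 214 to 290) and quartiles of 139 and 463. Of these, 15 of 313 (4.79%, interval 2.71 to 7.78) exceeded 1000 bases, the intron length set in the alignment call, against 0.733% (interval 0.569 to 0.930) of GT-AG gaps and 1 GC-AG gap. Lengths divisible by 3 were 35.3% (interval 29.2 to 41.8) of GC-AG gaps and 32.5% (interval 31.5 to 33.4) of GT-AG gaps, with overlapping intervals.

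**Figure D3:**
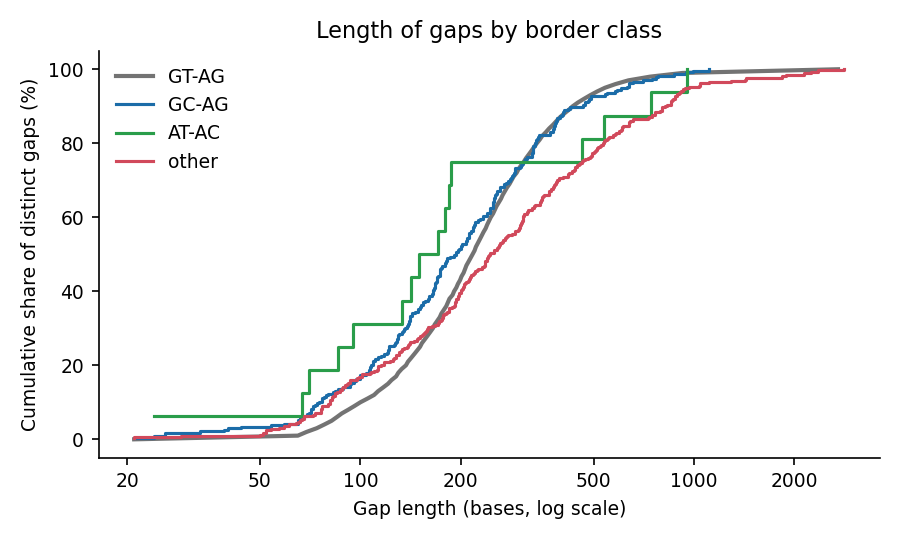
Lines give the cumulative share of distinct gaps (%) against gap length in bases on a log scale for each border class, with all gaps of a class included. The medians are 193 bases for GC-AG, 217 for GT-AG and 244 for the other class, and the line of the other class reaches furthest to the right, to 2821 bases.

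The match of the read beside the gap differed between GC-AG gaps with 1 read and those with more. A read that crosses a border cleanly matches the genome on both sides of the gap, and the records list each mismatch, insertion and deletion, together called edits. At GC-AG gaps with at least 2 reads, 83.3% (interval 80.2 to 86.2) of events had at least 10 matching bases on both sides, against 87.1% (interval 86.8 to 87.3) at such GT-AG gaps. At GC-AG gaps with 1 read, this was 58.4% (interval 50.2 to 66.3), against 84.3% (interval 83.2 to 85.3) for GT-AG gaps with 1 read. An edit lay within 3 bases of the border in 31.2% (interval 24.0 to 39.1) of GC-AG gaps with 1 read and in 5.51% (interval 4.87 to 6.21) of GT-AG gaps with 1 read. Edits at the border were thus more frequent in GC-AG gaps with 1 read than in GT-AG gaps with 1 read.

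**Figure D4:**
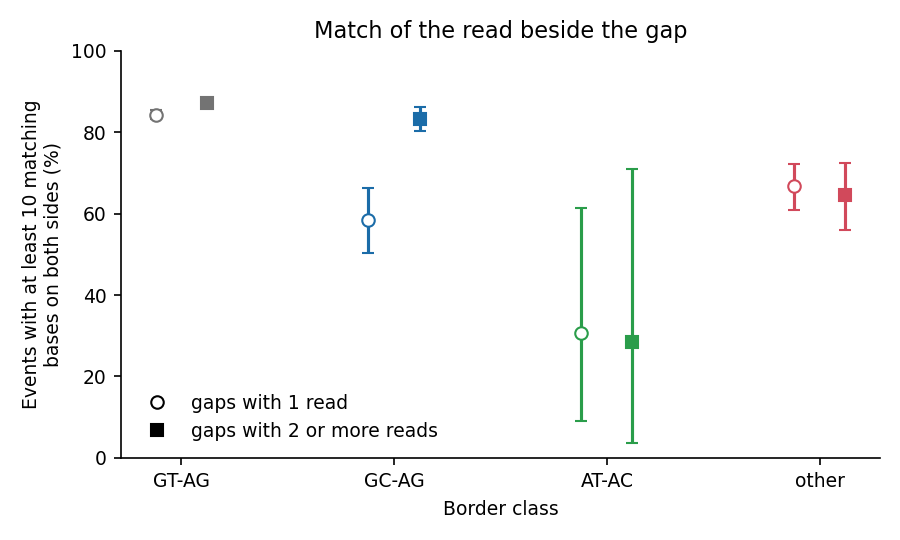
Points give the share of splice events (%) with at least 10 matching bases on both sides of the gap, with exact 95% intervals, for gaps with 1 read (open circles) and with 2 or more reads (squares). GC-AG gaps rise from 58.4% to 83.3% between the groups, while the other class stays at 66.7% and 64.5%.

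Part of these GC-AG gaps lay beside a GT-AG intron. For 38 of the 235 GC-AG gaps, a GT-AG gap had both borders within 10 bases (16.2%, interval 11.7 to 21.5). This held for 34 of the 154 with 1 read (22.1%, interval 15.8 to 29.5) and for 4 of the 81 with more (4.94%, interval 1.36 to 12.2). It held for 1.44% (interval 1.21 to 1.71) of GT-AG gaps. The 34 near gaps with 1 read included 1 with 10 matching bases on both sides, against 89 of the 120 that were not near (74.2%, interval 65.4 to 81.7). Among GT-AG gaps with 1 read that lay near another GT-AG gap, 9 of 56 had such a match. At recurrent GC-AG gaps that overlapped no GT-AG gap, 87.7% (interval 84.5 to 90.5) of events did, the same as at GT-AG gaps within the intervals.

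The commonest arrangement, at 20 of the 38 near gaps, was a shared acceptor with the GC donor 2 bases downstream of the GT donor, and at 7 more the GC donor lay 4 bases downstream. In the first arrangement the GT-AG intron begins with GT and the next 2 bases are GC, as the border signs of both gaps show.

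These 27 gaps with a donor shifted by 2 or 4 bases had little support of their own. They held 29 reads in all, 25 of the gaps had 1 read, and in none of their reads did the match beside the gap exceed 6 bases. Their GT-AG partners had a median of 25 reads, from 1 to 336. On sequence 6, for example, the gap from 3950741 to 3950941 had 2 reads with a GC donor, and the GT-AG gap from 3950739 had 111. On sequence 10, a GC-AG gap from 1162318 to 1162490 had 2 reads beside 138 of the GT-AG gap from 1162316. The most used GC-AG intron, with its GC donor upstream of the GT donor, had the opposite proportion, 111 reads to 2, where the GT donor was the one without a clean match. Sequencing errors near the border, which the short matches leave possible, were not tested as a source of the shifted gaps.

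In all, 34 GC-AG gaps shared a border with a GT-AG gap. The shared border was the acceptor in the same direction, which the classes fix, since the same donor position cannot be both GC and GT. The GT-AG partner had more reads for 30 of the 34. Of the 34, 29 had 1 read, so their partner could not have fewer. Away from the near pairs, on sequence 9, a GC-AG gap of 586 bases from 1427693 to 1428278 with 5 reads shared its acceptor with a GT-AG gap whose donor lay 127 bases downstream, in 9 reads. None of these 5 reads had 10 matching bases on both sides.

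**Figure D5:**
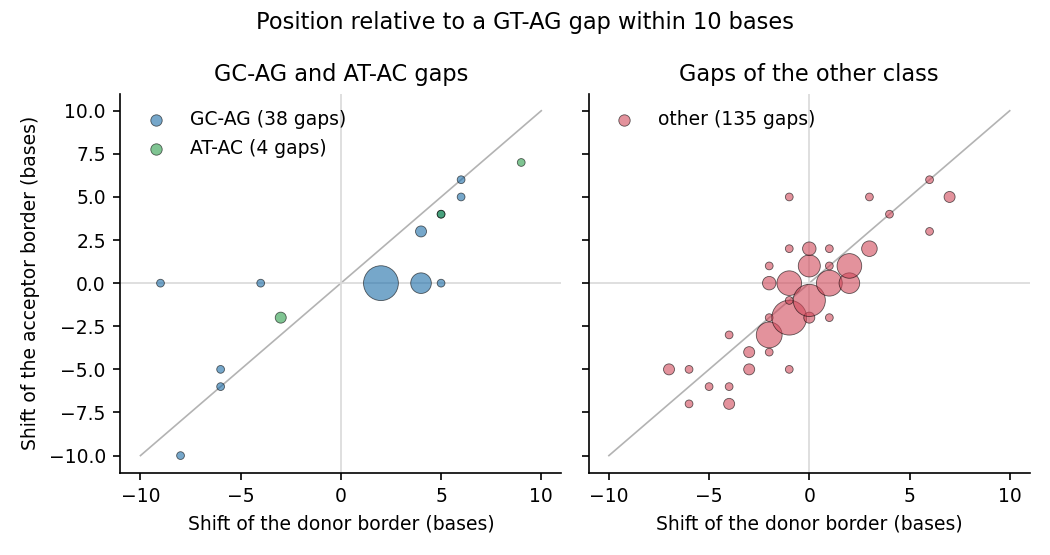
Circles give the shift in bases of the donor and acceptor borders of a gap relative to the GT-AG gap within 10 bases that has the most reads, positive in the direction of transcription, with area proportional to the number of gaps. GC-AG gaps gather at an unchanged acceptor and a donor 2 or 4 bases downstream, and gaps of the other class gather 1 base from the diagonal on which both borders shift equally.

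Gaps of the other class lay beside GT-AG gaps more often than GC-AG gaps did. Of the 313, 135 had a GT-AG gap with both borders within 10 bases (43.1%, interval 37.6 to 48.8), and 65 more overlapped a GT-AG gap without being that near. The remaining 113 overlapped none. Among the 135 near gaps, 98 differed in length from the GT-AG gap by 1 base, 77 of them being 1 base shorter. The shift was most often 1 base upstream at the donor and 2 at the acceptor, in 20 gaps, or none at the donor and 1 upstream at the acceptor, in 17. The GT-AG gap, the one with the most reads where several were near, had more reads than its neighbour for 123 of the 135, with a median of 48 reads. As 119 of the 135 had 1 read, their GT-AG gap could not have fewer.

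On sequence NA, a gap of 236 bases from 4069930 to 4070165 with AG-TG borders had 8 reads, 7 minus and 1 plus, all with at least 10 matching bases on both sides. The GT-AG gap beside it, 1 base longer, had 414 reads. On sequence 4, the gap from 34817 to 34970 (154 bases, GG-GC borders) had 2 plus and 2 minus reads beside a GT-AG gap with 315, again 1 base longer. On sequence 8, gaps from 222168 to 222475 and from 222174 to 222478 had 3 reads each beside the same GT-AG gap with 539. The reads of the first of these had no clean match of 10 bases, and those of the second all did. In each example the gap was a small minority beside a GT-AG gap within 10 bases.

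The border bases of the other class were diverse. A transcript direction from other gaps of the read or of the locus was available, with 1 pair of borders, for 259 of the 313, and these had 116 different border pairs. Of the 259, 44 began with GT, 36 ended with AG and 179 had neither. The commonest pairs were GG-GC and GT-CA with 17 gaps each, then GG-AG with 12 and TG-AG with 10. Among the 132 near gaps with a direction, 33 began with GT and 30 ended with AG, which differ from GT-AG at the other end alone. Among the 127 gaps that were not near, 11 began with GT and 6 ended with AG. Of all 135 near gaps, 30 had the donor border of their GT-AG gap and 31 its acceptor border, where GT or AG is fixed. The contrast with the gaps that were not near thus largely restates shared positions. The gaps that were not near include those that overlap a GT-AG gap.

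Several gaps of the other class with the most reads lay in sequence that nearly all reads cover without a gap. On sequence NA, in a locus of 87954 reads, a gap of 68 bases from 200056 to 200123 had 24 reads, all plus. A gap of the same length from 200060 to 200127 had 8 reads, all minus. Unspliced reads crossed the left border of the first 83464 times and the right border 79529 times, 99.97% of its boundary crossings. Both gaps had the same length and lay 4 bases apart, each read in 1 direction.

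Such pairs recurred. There were 11 pairs of gaps of the other class with equal length and a shift of up to 10 bases, from 1 to 9, which involved 19 gaps. In 6 of the 11 pairs, the gaps were read in opposite directions. On sequence NA, gaps of 52 bases from 6689373 to 6689424 (1 plus read) and from 6689377 to 6689428 (4 minus reads) formed another such pair, in a locus with 2037 reads. Of the 6 pairs, 2 shared a minus read on sequence 1 that lay between plus reads on both sides, so strand and position were not ordered alike in all pairs.

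Other recurrent gaps of this class lay in transcripts with a GT-AG intron on at least 1 side and had no unspliced crossing. On sequence 1, a gap of 453 bases from 6188828 to 6189280 had AA-AC borders in the direction of its neighbours and 8 minus reads. Its GT-AG neighbours had 14 reads each, and 2 GT-AG gaps overlapped it. On sequence 2, a gap of 2141 bases from 4464169 to 4466309 had TT-TC borders and 7 minus reads, between GT-AG introns with 25 and 23 reads. This was the longest gap of the class with at least 2 reads, and 2 GT-AG gaps overlapped it as well. On sequence 12, a gap of 503 bases from 267944 to 268446 had GG-CA borders and 5 plus reads in a locus of 8. No GT-AG gap overlapped this one.

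In these 3 gaps no read matched far on both sides. The matching run beside the gap was 1 base in all 8 reads of the first, 2 bases in all 7 of the next and 4 bases in all 5 of the last. All reads of each gap were in 1 direction. The exact borders of these gaps are therefore uncertain, although they were seen in transcripts that were spliced on at least 1 side. On sequence 3, a gap of 746 bases from 6074434 to 6075179 with GT-AA borders had 3 reads and likewise a matching run of 4 bases. It was overlapped by 2 GT-AG gaps. By contrast, a gap of 731 bases on sequence NA from 4070254 to 4070984, with AA-AG borders, had 8 minus reads with at least 27 matching bases on both sides. It shared its acceptor with a GT-AG gap of 1 read and spanned a whole GT-AG intron.

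The 113 gaps of the other class that overlapped no GT-AG gap were heterogeneous. Of these, 49 were crossed unspliced more often than spliced, 46 lay in loci without any GT-AG gap, and 21 lay in loci in which every read was spliced at the gap. For 20 of these 21 the locus consisted of 1 read. None of the 113 was read in both directions, and 13 had at least 2 reads. Of the 65 that overlapped without being near, 43 contained a whole GT-AG intron and 44 were mostly unspliced.

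AT-AC gaps were few, and each can be described. Of the 16, 4 lay within 10 bases of a GT-AG gap at both borders, and none of their reads had 10 matching bases on both sides. The AT-AC gap with the most reads was one of them, on sequence 12 from 5200021 to 5200170, with 3 minus reads that had an edit at the border and a GT-AG gap of 38 reads 1 base shorter. Another, of 953 bases on sequence 2 from 3749180 to 3750132, had 1 read beside a GT-AG gap with 93. Of the others, 8 were crossed unspliced more often than spliced. On sequence 3, the gap from 4474848 to 4475031 (184 bases) had 2 minus reads with clean flanks against 50 and 48 unspliced crossings. On sequence 11, the gap from 1372972 to 1373041 (70 bases) had 2 identical plus alignments against 194 and 132 unspliced crossings. On sequence 5, a gap of 171 bases from 802878 to 803048 had 1 read, with 79 matching bases, against 22 and 25 unspliced crossings.

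The last 4 AT-AC gaps had 1 read each and neither property. These gaps were chosen for mention after their values were seen. Of these reads, 2 were the only read of their locus and had 14 and 69 places on the genome. A further read lay in a locus of 2 reads on sequence 12, and the other, also on sequence 12, had a flank with 89% identity. Only the 3 AT-AC gaps with at least 2 reads could be read in both directions, and none was. For 0 of 3 the exact upper bound is 70.8%, and 3 counts of the total set no limit.

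When conditions were added one after another, part of the GC-AG gaps remained and none of the other 2 classes did. The conditions were chosen after the values were seen and use the number of reads that also sorts the gaps, so the counts are a description. At least 2 reads, both read directions, and at least 1 read with 10 matching bases on both sides left 49 GC-AG gaps, no AT-AC gap and 3 of the other class. Each of those 3 had a GT-AG gap with more reads within 10 bases, and without such gaps and without mostly unspliced gaps, 49 GC-AG gaps and none of the other class remained. The same conditions left 2737 GT-AG gaps. GC-AG gaps were then 1.76% (interval 1.30 to 2.32) of 2786, and a count of 0 allows the AT-AC and other classes up to 0.108% each (exact upper bound 0.132%). These limits describe the 2786 gaps alone and are no bound on either class among all gaps. Gaps with 1 read, 13 of 16 AT-AC and 276 of 313 of the other class, could not meet the conditions.

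GC-AG gaps were spread over the genome. Among gaps with at least 2 reads, their share on the 17 numbered sequences ran from 0 of 67 on sequence 8, which allows up to 4.48% (exact upper bound 5.36%), to 8 of 191 on sequence 9 (4.19%, interval 1.83 to 8.09), with a median of 1.40%. The intervals of these sequences overlap. On sequence NA, gaps of the other class were 33 of 496 (6.65%, interval 4.62 to 9.22), above the median of 3.27% on the numbered sequences.

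The minimum of 20 bases had little effect on the members. Just below it were 6 gaps with borders other than GT-AG and 1 read each, of 9 to 19 bases. Just above it, 8 members had up to 30 bases, the shortest 21, with 1 read each.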

How the data were processed

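The deposited file lists, per its header, alignments that the authors made with GMAP version 2007-09-28, with the intron lengths for K and L set to 1000 bases. The submitters' processing notes also name GSNAP, without a version. The build is not named there. Each record gives the place, percent identity, aligned blocks, edits beside each gap and, per the file's layout, a sign for the gap borders.

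For each read the kept place was the one with the largest value of identity multiplied by the aligned fraction of the read, and reads with another, non-overlapping place within 0.1 points were left out. Gaps of at least 20 bases were merged by sequence, start and end. The direction of gaps of the other class came from other gaps of the read or, failing that, from the GT-AG gaps of the locus. A gap was called near when both borders lay within 10 bases of a GT-AG gap. A read crossed a border unspliced when 1 aligned block covered it with 10 bases on each side, and a gap was called mostly unspliced when such reads made up most of its crossings. The 223396 tie-free reads set the precision, and there was 1 library, so no test was made.

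The named gaps are the 10 GC-AG gaps, 5 AT-AC gaps and 10 gaps of the other class with the most reads, and the longest of each class with at least 2 reads. Those beside a GT-AG partner on sequences 6, 8, 9 and 10, the partner of the 52-base gap on sequence NA and the last 4 AT-AC gaps were picked after their values were seen. The members and lists were chosen with earlier results of these data known. Scripts were tested on simulated data and ran under Python 3.11.15 with numpy 2.4.6, scipy 1.17.1 and matplotlib 3.10.9.

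The 454 chemistry makes insertions and deletions in runs of 1 base, which can shift the end of an aligned block, and the aligner prefers GT-AG borders where it can place them. Both can change the border class of a gap.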

Additional observations from a re-analysis of the deposited data

Results flagged for a closer look

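Among the reads left out because several places fitted equally well, 16 of 637 splice events had borders other than GT-AG (2.51%, interval 1.44 to 4.05), 11 of them GC-AG, 2 AT-AC and 3 of the other class. These reads enter no comparison.

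One position on sequence NA, from 6689703 to 6689715, carried an AT-AC sign in 476 listed alignments, 87.3% of all AT-AC signs in the records. That gap has 13 bases, below the minimum of 20, so it is no member.

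In tie-free reads, 6 gaps below the minimum length had borders other than GT-AG, each with 1 read.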

How the results depend on the processing

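No paired analysis was possible because 1 library was analysed. Of 147 recomputed values, 130 stayed within their 95% interval or, for counts, within 1.5 times the value given, and 17 did not. The GC-AG share of splice events, 1.27%, became 1.42% with duplicate alignments counted once, 1.15% with at least 10 matching bases on both sides and 1.09% without its most used intron. With those 10 matching bases, 44.2% of GC-AG gaps had at least 2 reads, and 0 of the GC-AG and 0 of the AT-AC gaps lay near a GT-AG gap. This setting also removes GT-AG gaps. The 3 near GC-AG gaps with a matching read stayed, but their GT-AG partners, of 2, 1 and 1 reads, did not. With this setting, 5 AT-AC gaps (0.0113% of events) and 208 of the other class (0.514%) remained. With identity of at least 95% and aligned share of at least 90%, 6 AT-AC gaps (0.0159%) remained, and the other class had 0.611% of events. With both flanking exons of at least 20 bases at 95% identity, 83.4% of GC-AG and 74.3% of other-class events matched on both sides, 9.23% of GC-AG gaps lay near a GT-AG gap, and the other class had 0.601% of events. No value moved beyond these limits with reads of 1 alignment, a tie tolerance of 1 point, a minimum gap of 50 bases, or near windows of 5 or 20 bases. The settings with 10 matching bases, the near windows and the removal of the most used gap were chosen after seeing the data. Few reads per gap limit the AT-AC class most, with 20 events.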
